A study of Mus musculus with 8 samples.

Results

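The mouse Groucho family comprises Tle1, Tle2, Tle3, Tle4, Tle6 and Tle5, which the array annotation lists under its older name Aes. Its members were taken as every array probe whose annotated gene symbol was one of these names, which gave 18 probes for 6 genes among 45281 probes. The values of 13 of these probes, at least 1 for each gene, were above background often enough to be compared between genotypes. The family was chosen by the lower Tle6 value of the mutant cells, which was already known, so the genotype differences of its members are given as a description, without p-values.

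Groucho proteins bind no DNA of their own. They are brought to genes by repressor proteins such as Hes, Runx, Tcf/Lef and homeodomain factors, which hold them through short peptide motifs, and they then silence the gene together with histone deacetylases. Tle1 to Tle4 are full-length members with a tetramerisation domain and a WD-repeat domain, Tle5 is a short form without WD repeats that can act against the others, and Tle6 is a divergent member best known from the subcortical maternal complex of the mouse oocyte. Bapx1 (Nkx3-2) is an NK homeodomain repressor expressed in the condensing skeleton, and NK factors are among the proteins that can recruit Groucho.

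The question was which genes depend on Bapx1 in the cells that express it. Hindlimbs of E12.5 embryos on a C57BL/6J;129 background were dissociated, green cells were collected by fluorescence-activated sorting, and total RNA was hybridised to Illumina mouse whole-genome BeadChips, with 4 arrays for each genotype. In the wildtype, EGFP was placed behind an internal ribosomal entry site, within the 3' untranslated region of Bapx1 (allele Bapx1 tm2.Tlu), and the paper writes these animals as heterozygous for the reporter. In the Bapx1 null, EGFP sits directly behind the start codon and replaces a short stretch of coding sequence (Bapx1 tm4.Tlu on both chromosomes). All cells of both groups thus expressed EGFP from the Bapx1 promoter, but through different constructs, and any difference in which cells were sorted cannot be told apart from the genotype. The arrays are described as biological replicates, how many embryos stand behind each remained unstated, and the p-values for genes outside the family measure the spread between these 8 arrays.

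Between 18375 and 20256 probes were detected on an array, and the correlation between arrays ran from 0.955 to 0.987. Of 19568 probes tested, 149 differed between the genotypes (63 higher and 86 lower in the null) by limma at a Benjamini-Hochberg adjusted p under 0.05. With the log2 of intensities floored at 1, without normexp, and each array scaled by its median absolute deviation, 10 were called (8 higher and 2 lower). The Bapx1 probes read higher on the null arrays: the brighter gave 4.52 ± 0.12 on the log2 scale in the wildtype, where it was detected on 0 arrays, and 8.48 ± 0.48 in the null (SD, n = 4). The position of these probes relative to the targeted part of the gene is unknown here, so they do not check the labels, and the direction of every fold rests on the sample titles. A Y-linked probe, Eif2s3y, stood apart on wildtype replicate 2, at 7.86 against 10.24 to 10.82 on the other wildtype arrays, and it read 11.17 to 11.71 on the null arrays, above every wildtype array. The brightest-probe folds of the members are therefore also given without wildtype replicate 2. The part of embryo sex in the genotype differences was not tested.

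Tle6, which had a single probe (ILMN_2900617), was the member with the lowest null to wildtype ratio by brightest probe. Its normalised log2 values were 8.54, 8.54, 8.68 and 8.86 in wildtype replicates 1 to 4, from deposited intensities of 508.8, 331.8, 475.4 and 363.3. The null values were 7.52, 7.37, 7.65 and 7.59, from intensities of 167.4, 105.0, 190.5 and 160.5. The lowest wildtype array thus stood 0.88 above the highest null array, a distance greater than the whole range of 0.33 within the wildtype or 0.28 within the null. The group means were 8.65 ± 0.15 and 7.53 ± 0.12 (SD, n = 4), a log2 fold of -1.12 ± 0.12 (SE), which is 2.18-fold lower in the null. Without wildtype replicate 2 the log2 fold was -1.17 ± 0.14. The probe was detected on all 8 arrays, so the transcript was lower in the null but still above background.

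Tle2, a full-length corepressor, was lower in the null by both of its probes. The brighter (ILMN_1250103) read 9.10, 8.94, 9.30 and 9.09 in the wildtype and 8.12, 8.27, 8.08 and 7.88 in the null. The groups were separated by 0.67, and the means of 9.11 ± 0.15 and 8.09 ± 0.16 (SD, n = 4) gave a log2 fold of -1.02 ± 0.13 (SE), or 2.03-fold lower in the null. The second probe (ILMN_2669225) read 8.74, 8.29, 8.83 and 8.74 in the wildtype against 7.53, 7.57, 7.73 and 7.29 in the null, a log2 fold of -1.12 ± 0.15. Its lowest wildtype value, on replicate 2, was still 0.56 above its highest null value. Without wildtype replicate 2 the log2 folds of these probes were -1.08 ± 0.14 and -1.24 ± 0.14.

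Only the probes of these 2 genes passed the adjusted threshold among the family: 3 of 13 tested probes were called lower and 0 higher. With floored intensities, no normexp and median absolute deviation scaling, 0 member probes were called. Over all tested probes 0.439% were called lower and 0.322% higher (0.761% in either direction), and by brightest probe 0.613% of genes were called lower. Since the Tle6 difference was part of what singled out the family, nothing is read from the count. By brightest probe, 3 genes had a negative and 3 a positive log2 fold, with a median of -0.19, beside a median of -0.04 over all 10772 genes tested. The 4 arrays of each genotype did not overlap at 7 of the 13 probes (5 lower and 2 higher in the null), where 6.29% of all tested probes separated in either direction (3.74% lower and 2.55% higher). These shares are printed for the same reason without a reading. In sorted cells of a whole limb, fewer cells of a type and less RNA per cell cannot be told apart, and this holds for each value here.

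**Figure D1:**
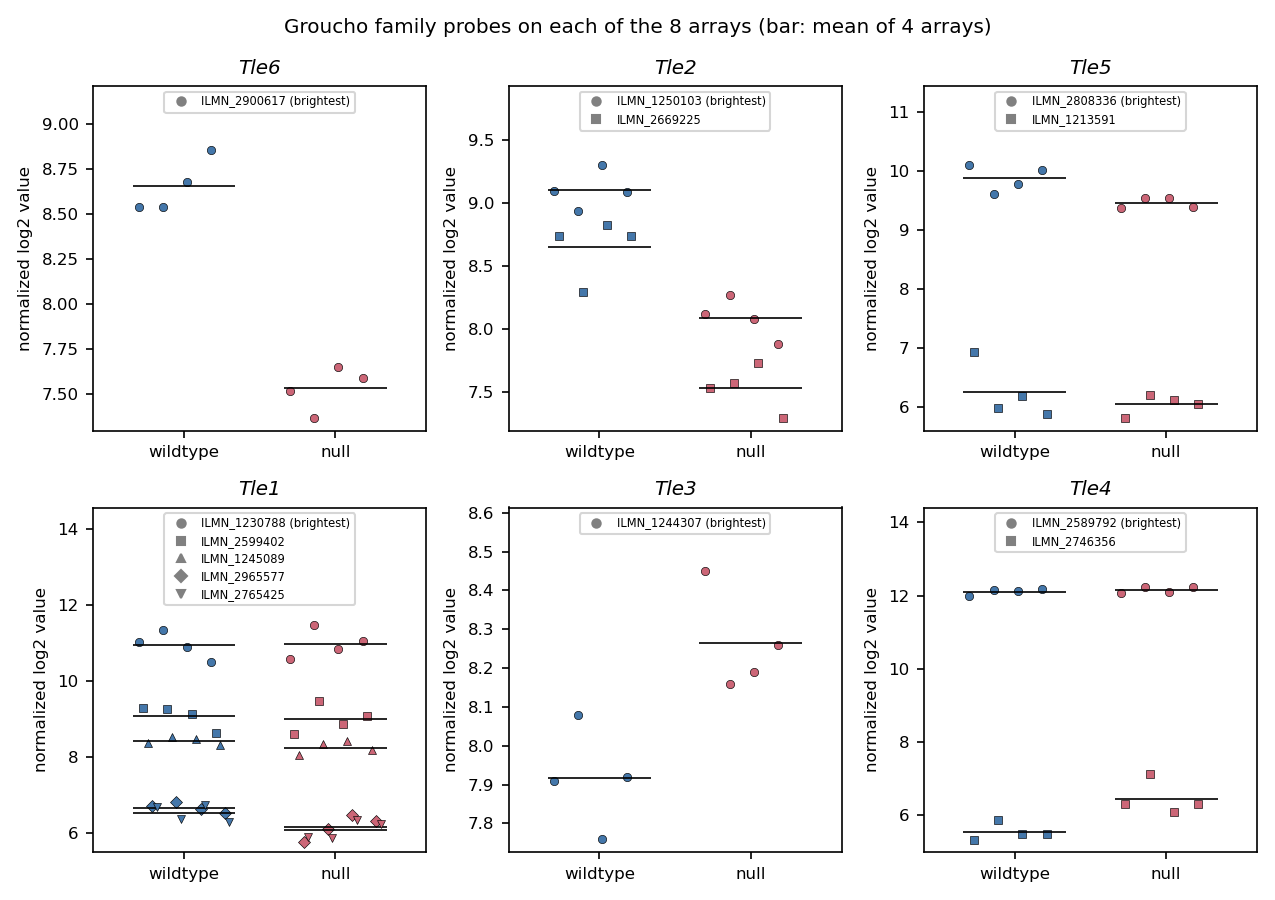
Normalised log2 value of each tested Groucho family probe on each array, with 1 panel per gene, wildtype arrays in blue, null arrays in red, and a bar at the mean of 4 arrays. Tle6 and both Tle2 probes separate by at least 0.56 between the groups, Tle3 and Tle5 (brightest probe) by less than 0.10, and the brightest Tle1 and Tle4 probes overlap.

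Tle5, the short member without WD repeats, was slightly lower in the null by its brightest probe. ILMN_2808336 read 10.10, 9.62, 9.79 and 10.02 in the wildtype and 9.37, 9.55, 9.55 and 9.40 in the null. The groups only just separated, by 0.06, with means of 9.88 ± 0.22 and 9.47 ± 0.09 (SD, n = 4). The log2 fold was -0.41 ± 0.13 (SE), 1.33-fold lower in the null, and -0.50 ± 0.13 without wildtype replicate 2. The second Tle5 probe (ILMN_1213591) overlapped between the groups, at 5.88 to 6.93 in the wildtype and 5.80 to 6.19 in the null, with a log2 fold of -0.21 ± 0.22 that ran from -0.33 to 0.02 over 18 processing settings.

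Tle5, Tle2 and Tle6 lie side by side on mouse chromosome 10, in that order, whereas Tle1, Tle3 and Tle4 lie on chromosomes 4, 9 and 19. In the RefSeq gene table the annotated spans of Tle2 and Tle6 overlap, with Tle2 on the plus strand and Tle6 on the minus strand, while Tle5 overlaps neither. The part of each transcript that the probes read is unknown here, so the Tle2 and Tle6 values may not be fully separate measurements.

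The genes around them were compared to see whether the lower values extended along the chromosome. Of the 10 protein-coding genes on each side, 11 of 20 had a named probe, 7 were tested and 0 were called in either direction, where 0.947% of all genes were called (limma, Benjamini-Hochberg). At an unadjusted p under 0.05 there was 1, Smim24, which encodes a small membrane protein, at a log2 fold of -0.46 ± 0.20 (adjusted p = 0.426). Sirt6, a chromatin deacylase and the gene next to Tle6, gave -0.30 ± 0.22 (adjusted p = 0.661). The other 5 tested neighbours (Fzr1, Dohh, Nfic, Gna11 and Ankrd24) lay between -0.07 and 0.20. Gna11, the nearest tested gene on the side of Tle5, gave -0.07 ± 0.15, and Ankrd24, next after Sirt6, gave -0.06 ± 0.13. The SE of the neighbours lay between 0.12 and 0.25, and log2 differences well above that size could also go uncalled. In the same fit Tle5, at -0.41 ± 0.13, was not called. The 0 calls therefore do not show where along the chromosome the lower values end.

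**Figure D2:**
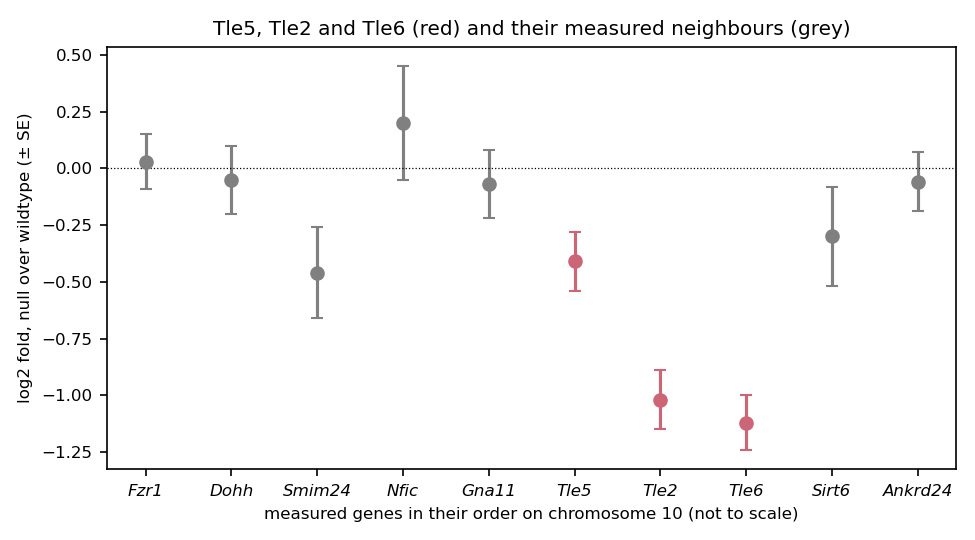
Log2 fold (null over wildtype, bar ± SE) of Tle5, Tle2 and Tle6 in red and of their 7 tested neighbours in grey, in gene order along chromosome 10 and not to distance. Tle2 and Tle6 lie at -1.02 and -1.12, and the lowest neighbour, Smim24, at -0.46.

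Among the members that lie elsewhere, Tle3, a full-length corepressor, read slightly higher in the null. Its only tested probe (ILMN_1244307) gave 7.91, 8.08, 7.76 and 7.92 in the wildtype and 8.45, 8.16, 8.19 and 8.26 in the null. The groups separated by 0.08, with means of 7.92 ± 0.13 and 8.26 ± 0.13 (SD, n = 4) and a log2 fold of 0.34 ± 0.12 (SE), 1.27-fold higher in the null, and 0.40 ± 0.13 without wildtype replicate 2. The further Tle3 probes could not be compared: ILMN_2984872 was detected on 3 arrays, and ILMN_2757607 and ILMN_2615276 on 0.

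Tle4, another full-length member, gave different folds at different probes. The brightest (ILMN_2589792) read 11.98, 12.16, 12.13 and 12.17 in the wildtype and 12.07, 12.23, 12.09 and 12.24 in the null. These groups overlapped, and the log2 fold was 0.05 ± 0.11 (SE), or 0.06 ± 0.12 without wildtype replicate 2. The second probe (ILMN_2746356) read 5.33, 5.86, 5.48 and 5.49 in the wildtype and 6.30, 7.12, 6.09 and 6.31 in the null. Here the groups separated by 0.24, with means of 5.54 ± 0.22 and 6.46 ± 0.46 (SD, n = 4), a log2 fold of 0.92 ± 0.22 that was not called (1.03 ± 0.24 without wildtype replicate 2). This probe lay close to background, at deposited intensities of 20.9 to 85.7, and null replicate 2 was its highest array. The third probe (ILMN_3011214) was detected on 2 arrays, both of them null. All 3 probes carry the same Tle4 accession (NM_011600), and the transcript forms that each reads are unknown here.

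Tle1, the remaining full-length member, likewise differed between probes. The brightest (ILMN_1230788) read 11.03, 11.36, 10.91 and 10.51 in the wildtype and 10.59, 11.47, 10.86 and 11.05 in the null, so the groups overlapped over nearly their whole range, and the log2 fold was 0.04 ± 0.22 (SE), or 0.17 ± 0.22 without wildtype replicate 2. The next probes, ILMN_2599402 and ILMN_1245089, also overlapped, at -0.07 ± 0.21 and -0.17 ± 0.12. The dimmer ILMN_2965577 read 6.71, 6.82, 6.63 and 6.52 in the wildtype and 5.78, 6.11, 6.48 and 6.33 in the null, groups that separated by 0.05 (log2 fold -0.50 ± 0.16). ILMN_2765425 gave -0.44 ± 0.16 with overlapping groups, and ILMN_1255037 was detected on 0 arrays. No Tle1 probe was called, and its probes ranged from a log2 fold of 0.04 at the brightest to -0.50.

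**Figure D3:**
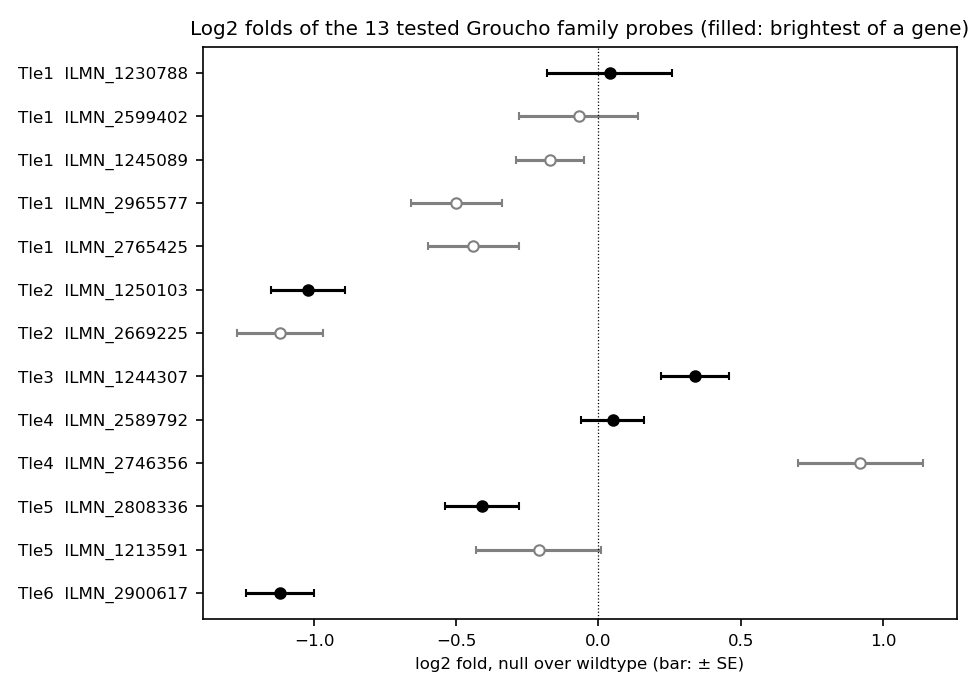
Log2 fold (null over wildtype, bar ± SE) of the 13 tested Groucho family probes, with the brightest probe of each gene filled. Both Tle2 probes and the Tle6 probe lie near or below -1, while the probes of Tle1, Tle4 and Tle5 spread within each gene.

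The promoters of the members were read for letters that Bapx1 binds, since Tle2 and Tle6 were lower together. RefSeq promoter sequences (GRCm38.p6, 250 bases before to 50 after a start) were at hand for 5 of the 6 genes, in 7 windows of 300 bases, with several starts for Tle4 and Tle6. The letters TAAGTG or TGAGTG, a core bound by Bapx1, were searched on both strands. They occurred in 23.9% of 32851 mouse promoter windows, and in 1 window each of Tle2, Tle6, Tle1 and Tle4 but not of Tle3. Tle4 and Tle6 each had a further window without a match. The match is given in capitals for the pair that was lower in the null (Tle2, plus strand, chr10:81575106-81575135, 169 bases before the start; Tle6, minus strand, chr10:81597348-81597377, 2 bases past its second start) and, for comparison, for a member whose brightest probe did not separate (Tle4, minus strand, chr19:14597349-14597378, 153 bases before a start).
Tle2: ttttttttttttTGAGTGggggtggggcgg
Tle6: tgggaggagcagTGAGTGggaaggcggaag
Tle4: cgcgccacccggTGAGTGgcgccgcgcccg
The same 6 letters were thus present at members that were lower and at a member that was not, and a match is a description of the sequence only.

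A longer shared stretch was seen when the sequences were read. It is the longest stretch around the letters CACGTG that at least 3 members shared, searched on both strands, and it was then counted over all promoters. Its presence in 3 members was thus fixed by the search. The share over all promoters, which include those of the members, is therefore not a measure of enrichment. The palindrome CCCACGTGGG, which holds the E-box core CACGTG read by many basic helix-loop-helix factors, occurred in 39 of 32851 promoters (0.119%), and in 1 window each of Tle3, Tle4 and Tle6 (the core alone occurred in 7.15%). It is shown in capitals for Tle6 (minus strand, chr10:81601066-81601095, 185 bases before the start), Tle3 (plus strand, chr9:61372286-61372315, 70 bases before) and Tle4 (minus strand, chr19:14598376-14598405, 212 bases before).
Tle6: tggctcgcagCCCACGTGGGctcgccgcct
Tle3: gtcccgtggcCCCACGTGGGagcctcgcac
Tle4: acgccctgtcCCCACGTGGGcctagcctgc
These 3 genes had log2 folds of -1.12, 0.34 and 0.05 by brightest probe. The part of the stretch in these values was not tested.

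The genes whose pattern over the 8 arrays was most like that of Tle6, out of 10771, were Lcp2 (Pearson's r = 0.994), Tbxas1 (0.986), Mid2 (0.983), Chst11 (0.981) and Slc35d3 (0.980). Lcp2 encodes an adaptor of signalling in platelets and other blood cells, Tbxas1 the thromboxane synthase of platelets, Mid2 a microtubule-associated ubiquitin ligase, Chst11 a chondroitin sulphotransferase of cartilage, and Slc35d3 a protein needed for platelet dense granules. All 5 were lower in the null, with log2 folds of -1.16, -2.17, -0.71, -0.99 and -1.77. The arrays fall into 2 genotype groups and all genes share the same 8 arrays, so these correlations contain the genotype difference itself and are a description without a p-value. Of the members, Tle2 was the most like Tle6 (r = 0.939, rank 46), followed by Tle5 (0.819), while Tle3 ran opposite (-0.836).

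When the mean of each genotype was removed, the likeness of Tle2 and Tle5 to Tle6 was no longer seen. The correlation of Tle2 with Tle6 was then -0.147, that of Tle5 0.194, that of Tle3 -0.168 and that of Tle4 0.132, while that of Tle1 was -0.787. The genes most like Tle6 in this second sense were Gtpbp8 (0.979), Tuba8 (0.978), Pop1 (0.976), Atpsckmt (0.970) and Cct7 (0.968). Their log2 folds between genotypes lay between -0.44 and -0.02, and Lcp2 remained at 0.934. These values, too, are the highest among 10771 genes over only 8 arrays and carry no test.

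Markers of other cell types moved with the genotype beside Tle6 and Tle2. Of 20 tested platelet and megakaryocyte genes 16 were called lower in the null and 0 higher, with a median log2 fold of -2.16. Examples are Cmtm5 (log2 fold -1.55 ± 0.12, adjusted p = 0.0016), Plek, the platelet substrate of protein kinase C (-2.50 ± 0.22, adjusted p = 0.00205), and Tbxas1 (-2.17 ± 0.20, adjusted p = 0.00205). The normalised intensities of these 20 genes summed to 7550, 7940, 8570 and 9130 on wildtype arrays 1 to 4, and to 930, 1990, 2120 and 1210 on the null arrays. Of the 23 genes of this list with a named probe, 4 were above background on 0 null arrays (Gp6, Itgb3, P2rx1 and Gfi1b), and Pf4, Plek and Tubb1 were detected on all 4. In the wildtype Gp6 and P2rx1 were detected on 4 arrays, but Gfi1b on 2 and Itgb3 on 1. Selp went the other way, on 1 wildtype and 4 null arrays, as did Clec1b, on 0 wildtype arrays and 1 null array. The part of these cells in the Tle6 and Tle2 values was not tested.

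Early cartilage genes, which mark the condensing skeleton in which Bapx1 is active, also read lower in the null. Their summed intensity was 60600 to 69900 in the wildtype and 44900 to 54000 in the null. Of 16 tested genes 2 were called lower, Chst11 (log2 fold -0.99 ± 0.13, adjusted p = 0.00993) and Comp, a cartilage matrix protein (-0.73 ± 0.12, adjusted p = 0.0318). None was called higher, and the median log2 fold was -0.62. The log2 fold was negative for 15 and positive for 1, Sox6 (0.17 ± 0.50). Sox9 (-0.09 ± 0.13) and Col11a1 (-0.05 ± 0.19) overlapped between the groups, so a lower sum does not show that each gene was lower. The part of cartilage cells in the Tle6 and Tle2 values was not tested either.

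Erythroid genes read higher in the null, with sums of 2440 to 4420 in the wildtype and 5410 to 41300 in the null and a median log2 fold of 2.30. Of 8 tested, 6 had an unadjusted p under 0.05 and 1 was called, Hbb-bh1, an embryonic globin (log2 fold 2.97 ± 0.49, adjusted p = 0.0311). The log2 fold was positive for 7 of the 8, but only 0.02 ± 0.15 for Klf1, and it was -0.16 ± 0.17 for Epor. Of the untested genes, Ermap was detected on 2 wildtype and 0 null arrays, Epb42 on 0 and 1, and Gata1 on 0 of either. The part of erythroid cells in the Tle6 and Tle2 values was likewise not tested. The sums of the other lists overlapped between the groups. They were 470 to 789 and 238 to 877 for macrophages, 1070 to 3200 and 962 to 1680 for endothelium, 904 to 1440 and 690 to 2370 for skeletal muscle, and 494 to 1080 and 611 to 857 for surface ectoderm, with 0 genes called in each. Of 11 hindlimb mesenchyme genes with a named probe 10 were above background in both groups, with overlapping sums of 18700 to 21600 and 17700 to 20700, among them Tbx4 and Pitx1, which define hindlimb. Of these 10 genes 0 were called, 5 had a negative and 5 a positive log2 fold, and 3 had an unadjusted p under 0.05 (limma). These 3 were Hoxd12 (0.67 ± 0.13, adjusted p = 0.0591), Prrx1 (1.18 ± 0.26, adjusted p = 0.0994) and Pitx1 (0.59 ± 0.25, adjusted p = 0.417). An overlapping sum thus does not show that each gene was unchanged.

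**Figure D4:**
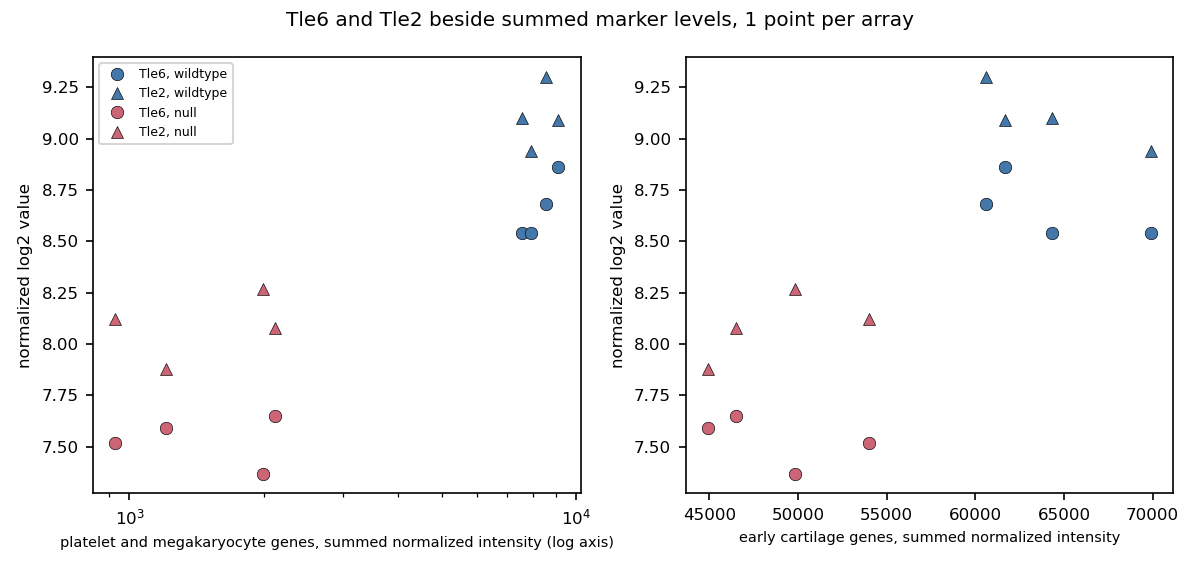
Normalised log2 value of Tle6 (circles) and Tle2 (triangles, brightest probe) on each array against the summed normalised intensity of platelet and megakaryocyte genes (log axis) and of early cartilage genes, with wildtype in blue and null in red. Both sums and both genes separate the groups, from 930 to 2120 against 7550 to 9130 for platelet genes.

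The proteins that Groucho members work with were compared next. Of 34 DNA-binding partners that can recruit Groucho, 24 had a named probe and 10 were tested (En1, Msx1, Tcf7l1, Ripply3, Tbx15, Gsc, Hes6, Tbx18, Tcf7l2 and Hes1), and 0 were called, with 3 at an unadjusted p under 0.05. Their median log2 fold of -0.04 equalled that over all genes. Over all tested genes 0.947% were called in either direction, and 2207 of 19568 tested probes had an unadjusted p under 0.05 (limma). At that share of calls a list this short would mostly hold 0, so nothing is read from the count. En1, a homeodomain repressor of the ventral limb ectoderm, had the widest difference: it read 5.40, 5.62, 5.24 and 5.70 in the wildtype and 5.81, 7.93, 7.29 and 7.67 in the null, a log2 fold of 1.68 ± 0.40 (adjusted p = 0.127). The groups did not overlap, but null replicate 1 lay near the wildtype arrays, and without it the log2 fold was 2.14 ± 0.19 (adjusted p = 0.00549). No other fit that left out 1 array called En1. The array left out here is the null array nearest the wildtype, so a smaller SE follows from the choice and the value is no separate support. Msx1, a homeodomain repressor of limb mesenchyme, gave 1.43 ± 0.47 (adjusted p = 0.29), with null values from 7.52 to 10.30 above wildtype values of 7.34 to 7.48. Tcf7l1, a Wnt pathway repressor, gave -0.29 ± 0.12 (adjusted p = 0.416), and Hes1, a Notch target that recruits Groucho, gave -0.01.

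Among the other parts of the silencing machinery no gene was called, where 0.947% of all tested genes were. The counts of these short lists are likewise given without a reading. Of 19 further corepressors and histone deacetylase components 15 were tested and 0 called (1 at an unadjusted p under 0.05), with log2 folds from -0.23 to 0.44 and a median of -0.04. Hdac3, a class I deacetylase, was the highest at 0.44 ± 0.18 (adjusted p = 0.397), Sin3b, a scaffold of deacetylase complexes, was the lowest at -0.23 (adjusted p = 0.562), and Ctbp2, a corepressor of another family, gave -0.18 (adjusted p = 0.602). Of 12 enzymes that modify Groucho proteins 7 were tested and 0 called (1 at an unadjusted p under 0.05). Csnk2a1, a catalytic subunit of casein kinase 2, gave 1.17 ± 0.43 (adjusted p = 0.345), and its groups overlapped. Hipk2, a kinase that phosphorylates Groucho, gave 0.19 (adjusted p = 0.537) and Huwe1, a ubiquitin ligase, -0.12 (adjusted p = 0.769).

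The proteins that join Tle6 in the oocyte showed no call alongside it. Of 5 such genes 3 were tested and 0 passed either the adjusted threshold or an unadjusted p under 0.05. These are too few to set against the 0.947% of all tested genes that were called. Ooep, a core part of the maternal complex, gave a log2 fold of 0.22 ± 0.15 (adjusted p = 0.639), Zbed3, a partner of that complex, -0.11 (adjusted p = 0.931), and Khdc3, also a part of it, -0.02 (adjusted p = 0.975).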

How the data were processed

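Total RNA of sorted hindlimb cells was labelled and hybridised to Illumina MouseWG-6 v2.0 arrays, 4 per genotype. The intensity values were deposited by the authors after background subtraction in GenomeStudio (release not given in the sources used here), before any normalization between arrays. A detection score was deposited beside every value, and 1 minus that score served as the detection p. A deposited table of log2 values was used as an alternative. Its columns had medians of -0.03, -0.03, -0.04 and 0.42 in the wildtype and of 0.01, 0.17, 0.10 and 0.03 in the null. It carries a median shift without the scaling of spread that the methods describe, and the constant taken from each probe is unknown.

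The intensity table names its rows by array address, so 35454 of 45281 rows were named by pairing them one to one with the log2 table by their pattern over the arrays (tolerance 1e-04, largest distance 4.1e-06). The other 9827 were left unnamed, and all 19568 tested probes were paired. Symbols came from GEO's platform annotation, updated through Entrez identifiers to RefSeq. Of the paired rows 28177 had 1 symbol, 16 several and 7261 none.

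Intensities were corrected by normexp (offset 16), quantile normalised and put on the log2 scale (neqc, limma 3.58.1, R 4.3.3). A probe was tested if at least 4 of the 8 arrays had a detection p under 0.05. The test was limma's moderated two-sided test (lmFit, eBayes) on genotype alone, adjusted by Benjamini-Hochberg over every tested probe and called under 0.05. Alternatives were other scalings and offsets, other filters on dim probes, the deposited log2 table, the replicate number as a block, array weights, the methods' test and leaving out each array in turn. The methods' test is the paper's ANOVA between genotypes, run here on the neqc values without the paper's fold cutoff. The scaling that the paper describes, by median absolute deviation, entered only as a separate setting. The steps were tested on simulated data. A gene with several probes entered lists with its brightest. The number of arrays limits the precision. No coordinates of probes were used.

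The members and the gene lists were chosen with earlier results of these data known, so none of them is independent evidence. The text names every member probe, Bapx1, the 3 genes of smallest p in each partner list, the 5 genes most like Tle6 by each measure, called neighbours and the 2 neighbours of smallest p, and up to 3 called genes of a cell type list. Eif2s3y, the remaining tested partners and neighbours, other markers and the palindrome were named after their values or sequences were seen.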

Additional observations from a re-analysis of the deposited data

How the results depend on the processing

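Tle6 and both Tle2 probes were lower in the null under each of 18 processing settings. Log2 folds were -1.30 to -0.99 for Tle6 and -1.18 to -0.94 for the brighter Tle2 probe. The settings that changed only the probe filter, and the replicate block, cannot change a log2 fold, so their result was fixed beforehand. Member probes called numbered 3 as reported, and 0 with median absolute deviation scaling of the log2 of intensities floored at 1. That setting also leaves out normexp, so these choices were not separated. The methods' test, run on the neqc values without a fold cutoff, passed 8 over all 6 genes unadjusted. The number was 2 with the deposited log2 table, with the methods' test after Benjamini-Hochberg and without wildtype replicate 3. Tle2 and Tle6 were both called in those last 3 settings. The Tle6 difference was part of what singled out the family, so nothing is read from these counts. Median-shift scaling, which moved the median of all genes from -0.04 to -0.16, gave -1.18 for Tle2, 0.19 for Tle3, -0.06 for Tle4 and -1.27 for Tle6. The deposited log2 table gave -1.30 for Tle6. Tle4 gave 0.29 with that scaling on floored intensities and 0.48 as a mean over its tested probes. Leaving out 1 array at a time gave -0.12 to 0.17 for Tle1, -1.08 to -0.95 for Tle2, 0.28 to 0.40 for Tle3, 0.00 to 0.07 for Tle4, -0.50 to -0.34 for Tle5 and -1.17 to -1.05 for Tle6. The count of 149 changed probes (57.7% lower) became 10 with floored intensities scaled by median absolute deviation (20% lower), 65 with the deposited log2 table, 267 with array weights, 53 with the methods' test after Benjamini-Hochberg and 2012 unadjusted. It was 50 to 142 with 1 array left out (77 without wildtype replicate 1, 50 without wildtype replicate 3, and 87, 80 and 71 without null replicates 2, 3 and 4). Unadjusted, the methods' test passed 3 DNA-binding partners and 1 modifying enzyme, and 0 to 1 partner was called with 1 array left out. Counts for the other corepressors, the oocyte partners and the chromosome 10 neighbours were 0 under all 21 alternatives, and the cell type lists were not recomputed. The causes were not tested. The correlations of same-numbered deviations were 0.07, 0.46, 0.26 and -0.31, beside -0.62 to 0.41 for arrays with different numbers. With 4 arrays per genotype they cannot settle whether replicate numbers pair the samples. With the replicate number as a block 108 probes were called, 3 of them members, with 0 calls in each partner list and among the neighbours. Each replicate number holds 1 array of each genotype, so the block changes the SE but not the log2 folds. Those of the members were therefore the same as in the main fit. The dim probes of Tle1, Tle3 and Tle4 lie near background, which limits what they can show.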
